A study of Homo sapiens with 3 samples.

Results

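The SR proteins and the heterogeneous nuclear ribonucleoproteins (hnRNPs), the main families of RNA-binding proteins that influence which splice sites are used, were followed in PANC-1 cells by RNA-seq. Members were taken by gene name as the rows called SRSF plus a number, HNRNP plus a letter code, TRA2A or TRA2B, and 28 names that fit this pattern but end in P plus digits, as pseudogenes do, were left out. This gave 38 of 51136 genes, 14 of them SR genes (SRSF1 to SRSF12, TRA2A and TRA2B) and 24 of them HNRNP genes. The pattern does not take HNRNPA2B1, which is described with the hnRNPs that carry other names.

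PANC-1 is an established cell line from a human pancreatic ductal carcinoma. The 3 groups were untreated cells (control), cells given Ginsenoside Rg3, a saponin of ginseng, at 200 µM for 24 h (Rg3), and cells given tamoxifen, a selective estrogen receptor modulator, at 50 µM for 24 h (TAM). Each group was 1 library, so a library and its treatment cannot be told apart, and no test of the treatments was possible. The study used Rg3 as an antiangiogenic agent and TAM as an inhibitor of the PKC pathway, and the comparisons ask how each moved the transcriptome of the tumor cells themselves.

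SR proteins carry RNA-recognition motifs and a tail of repeated arginine and serine residues. They bind enhancer sequences in exons and help U1 snRNP and the U2AF heterodimer to reach the splice sites. hnRNPs coat nascent RNA, often bind silencer sequences and can oppose SR proteins at the same exon. Kinases of the SRPK and CLK families phosphorylate the arginine-serine tails, and many SR and hnRNP genes hold down their own mRNA by splicing in an exon that sends the transcript to nonsense-mediated decay.

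Library totals were 11300766 reads in control, 12861693 in Rg3 and 11321442 in TAM. A change is given as a log2 fold change after TMM scaling, an edgeR scaling that centres most genes on no change, with a 95% exact interval (Clopper-Pearson) that covers counting error only. Cultures were not repeated, so the intervals are narrower than the true error. A gene was compared when it averaged at least 10 reads over the 3 libraries, and it counted as higher or lower when its fold passed 1.5 or fell under 0.67. That left 15672 genes, including 36 of the 38 members. SRSF12 (4, 9 and 1 reads in control, Rg3 and TAM) and HNRNPCL3 (2, 10 and 2 reads) were under that limit. Dividing by library totals in place of TMM shifted the median of all genes by 0.14 for Rg3 against control and by -0.21 for TAM against control. The epithelial keratins KRT8 (7817 to 15329 reads) and KRT18 (7406 to 13162 reads) and the mesenchymal gene VIM (39783 to 55276 reads) were read deeply in each library. The other epithelial markers were lower and differed between the control, Rg3 and TAM libraries, with 248, 93 and 345 reads for KRT7, 665, 290 and 181 for KRT19, 26, 26 and 8 for EPCAM and 76, 39 and 5 for CDH1, and their part in the results was not tested. The acinar genes PRSS1, CPA1, CELA3A and AMY2A and the islet hormones INS and GCG stood at 0 reads, while PTPRC, PECAM1, DCN and LUM had at most 2.

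The members differ in base composition, and the change of the genes as a whole moved with it in these libraries, so stretches of 6 members are shown. Each is 60 bases of coding sequence, taken within 1 exon as near as possible to the middle of the coding sequence, from GENCODE 29 transcripts on GRCh38. Capitals mark G and C. SRSF10 (chr1:23971864-23971923, minus strand) holds 38.3% G and C in this stretch, TRA2A (chr7:23512966-23513025, minus strand) 43.3% and SRSF3 (chr6:36598859-36598918, plus strand) 48.3%. SRSF9 (chr12:120465627-120465686, minus strand) and HNRNPAB (chr5:178206822-178206881, plus strand) each hold 51.7%, and HNRNPUL1 (chr19:41294338-41294397, plus strand) 55.0%. Over the whole transcript the values were 36.2% for SRSF10, 41.1% for TRA2A, 39.3% for SRSF3, 52.3% for SRSF9, 54.2% for HNRNPAB and 56.3% for HNRNPUL1. A stretch of HNRNPR was also read and is not printed, with 45.0% there and 35.3% over the transcript. The 6 do not stand for all members. HNRNPH1 (51.6%) and HNRNPA0 (41.1%), which changed by 0.56 and -0.29 in Rg3, against the direction of genes of like composition, are not among them.
SRSF10: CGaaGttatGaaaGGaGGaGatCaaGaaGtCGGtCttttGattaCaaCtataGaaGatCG
TRA2A: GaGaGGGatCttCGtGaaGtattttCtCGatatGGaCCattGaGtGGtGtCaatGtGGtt
SRSF3: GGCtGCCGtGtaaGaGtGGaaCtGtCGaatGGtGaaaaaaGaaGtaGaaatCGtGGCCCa
SRSF9: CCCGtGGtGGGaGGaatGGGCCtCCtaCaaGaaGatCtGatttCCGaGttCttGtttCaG
HNRNPAB: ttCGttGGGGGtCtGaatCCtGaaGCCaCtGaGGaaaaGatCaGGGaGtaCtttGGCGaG
HNRNPUL1: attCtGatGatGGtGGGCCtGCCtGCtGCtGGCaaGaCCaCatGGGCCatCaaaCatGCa

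Levels were compared between genes as TMM-scaled CPM (reads scaled to a common library size) per kilobase of transcript. HNRNPAB, a hnRNP that binds single-stranded RNA and DNA, had the highest mean level of the members (187.7 in control, 161.0 in Rg3 and 308.9 in TAM). HNRNPC, which packs nascent transcripts and binds runs of U, came next with 174.4, 205.9 and 219.8. SRSF9 was the highest SR gene with 129.6, 115.4 and 204.3, ahead of HNRNPL with 127.2, 114.9 and 181.4. HNRNPC led the members in Rg3 and HNRNPAB in control and TAM, and SRSF9 and HNRNPL stood highest in TAM.

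Below these 4, HNRNPK, a KH-domain protein that binds C-rich RNA, averaged 136.6, HNRNPF 100.3 and SRSF7 84.1. The other SR genes past the count limit, except SRSF8, lay between 14.02 (SRSF10) and 63.3 (SRSF3). Among the expressed members, SRSF8, a retrocopy of SRSF2, averaged 7.79 and HNRNPLL, a paralog of HNRNPL best known from lymphocytes, averaged 7.18. The lowest was SRSF12 at 0.0995, below the 3 short copies HNRNPCL2, HNRNPCL3 and HNRNPCL4 at 1.16, 0.311 and 1.28.

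**Figure D1:**
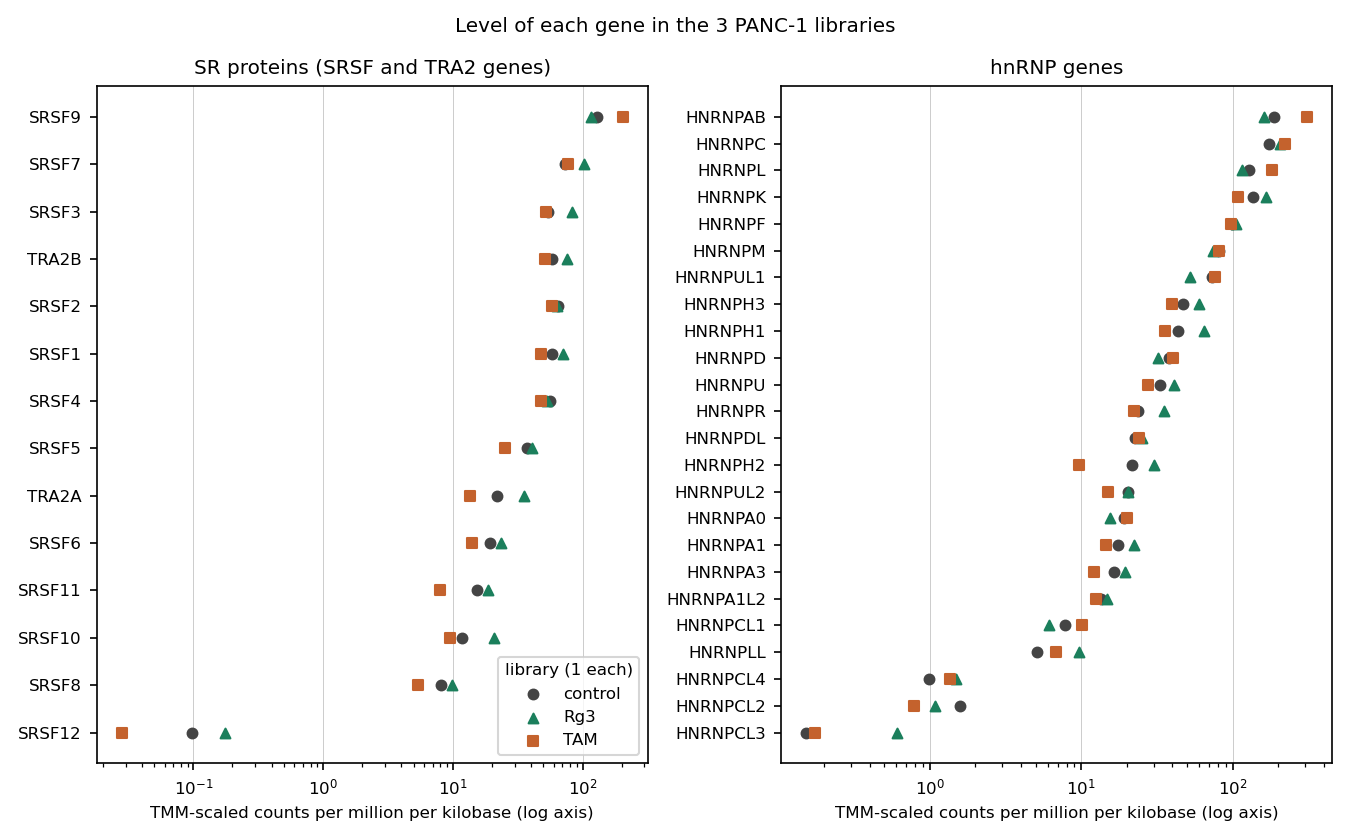
Level of each member in the control, Rg3 and TAM libraries, 1 point per library, in TMM-scaled CPM per kilobase on a log axis, with SR genes on the left and hnRNP genes on the right. The libraries of most genes lie close together beside the spread between genes, and SRSF9, HNRNPAB and HNRNPL have their TAM point to the right of the other points.

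The SR genes together held 18447 reads in control, 28451 in Rg3 and 14860 in TAM, which is 0.163%, 0.221% and 0.131% of all reads. Their summed TMM-scaled count differed from control by 0.30 in Rg3 (log2, interval 0.27 to 0.33) and by -0.11 in TAM (-0.14 to -0.07). The hnRNP members held 45906, 62770 and 43051 reads, or 0.406%, 0.488% and 0.380%. Their summed count differed from control by 0.12 in Rg3 (0.11 to 0.14) and by 0.11 in TAM (0.10 to 0.13), and TAM and Rg3 differed by -0.01 (-0.03 to 0.01). The summed level of the hnRNP members thus sat slightly above control in both treated libraries after TMM scaling. As a share of all reads it was lower in TAM than in control. The SR sum was higher in Rg3 and lower in TAM on both scales. Both scales leave in a trend on base composition that is described further on. With that trend removed the median change of the SR genes was -0.17 in Rg3 and 0.05 in TAM. For the hnRNP genes it was -0.19 and 0.20. The hnRNP sums leave out reads on pseudogenes and those of HNRNPA2B1, with 7459 reads in control, 14940 in Rg3 and 5159 in TAM. HNRNPA2B1 differed from control by 0.68 in Rg3 and by -0.33 in TAM. Sums with these reads added are not given here, so the near equality of TAM and Rg3 holds for the named members only. In bulk RNA, fewer cells expressing a gene and less RNA per cell cannot be told apart.

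The make-up of the SR pool differed most at SRSF9. This SR protein with a short tail took 9.69% of SR reads in control (95% exact binomial interval 9.26% to 10.1%), 7.02% in Rg3 (6.72% to 7.32%) and 16.4% in TAM (15.8% to 17.0%). SRSF3, one of the smallest SR proteins, took 14.3%, 17.7% and 14.9%. Among hnRNP reads HNRNPAB took 8.43%, 6.63% and 12.8%, and HNRNPC 19.6%, 21.3% and 22.9%. SRSF9 and HNRNPAB therefore had the same order of libraries, lowest in Rg3 and highest in TAM. These shares are not corrected for base composition, and the 2 transcripts hold 52.3% and 54.2% G and C. With the composition trend removed their changes from control were 0.01 and 0.09 in Rg3 and 0.30 and 0.33 in TAM, none past the fold.

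After Rg3, 5 of the 36 compared members were higher and 0 were lower than in control by the fold limit. Among all compared genes 23.8% were higher and 19.2% were lower, so the share of members higher (13.9%) lay under that of all genes. The median change of the members was 0.25, beside 0.02 for all genes, but turned to -0.17 once a trend on base composition was removed, as described further on. Before that step 24 members were above 0 and 12 below. The counting interval lay above 0 for 22 members, below 0 for 7 and held 0 for 7. SR genes had a median of 0.29 with 3 of 13 higher, and hnRNP genes a median of 0.15 with 2 of 23 higher. Before that step the shift of the members was thus small, and it passed the fold at few of them. Genes with 42% to 45% G and C, the range of the members' median of 42.9%, had a median change of 0.49. The same splits over all genes are not given here. With library totals in place of TMM 9 members were higher, and with edgeR's exact test at an assumed biological variation of 0.2 none was called.

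SRSF10, an SR protein that acts as a splicing repressor when it loses its phosphates, stood at 41.0 TMM-scaled CPM in control, 72.6 in Rg3 and 33.1 in TAM (471, 1045 and 329 reads). It rose by 0.82 in Rg3 (0.67 to 0.98). TRA2A, a transformer-2 homolog that binds GAA-rich exon enhancers, stood at 48.4, 78.3 and 30.04 CPM (556, 1127 and 299 reads) and rose by 0.69 (0.55 to 0.84). SRSF3, which also couples splicing to mRNA export, stood at 229.2, 350.2 and 222.2 CPM (2632, 5043 and 2211 reads) and rose by 0.61 (0.54 to 0.68). In all 3 genes Rg3 was the highest library, although SRSF10 and SRSF3 lay slightly below 0 with the composition trend removed. TRA2B, the paralog of TRA2A, stood at 171.3, 224.4 and 152.7 CPM and SRSF7 at 180.9, 253.8 and 193.5 CPM. Their changes of 0.39 (0.31 to 0.47) and 0.49 (0.41 to 0.57) did not pass the fold.

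The other SR genes moved less in Rg3. SRSF1, the founding SR protein, stood at 180.6 CPM in control and 221.7 in Rg3, a difference of 0.30 (0.22 to 0.38). SRSF11, SRSF8 and SRSF6 differed by 0.29, 0.27 and 0.27, and SRSF5 by 0.12. SRSF2 and SRSF4 differed by -0.02 and -0.07 with intervals that held 0. SRSF9 was the only SR gene whose interval lay below 0, at -0.17 (-0.26 to -0.07).

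Of the hnRNP genes, HNRNPLL stood at 21.3 CPM in control, 40.1 in Rg3 and 28.4 in TAM (244, 578 and 283 reads), and rose by 0.92 in Rg3 (0.70 to 1.14), the largest rise of a member, but lay at 0.10 with the composition trend removed. HNRNPCL4, a short copy of HNRNPC with 10, 19 and 12 reads, also passed the fold at 0.60, but its interval ran from -0.58 to 1.87. HNRNPR and HNRNPH1 lay just under the limit. HNRNPR, the closest paralog of SYNCRIP, stood at 182.1 and 268.6 CPM, a difference of 0.56 (0.48 to 0.64). HNRNPH1, which binds runs of G, stood at 160.1 and 235.2 CPM, also a difference of 0.56 (0.47 to 0.64).

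HNRNPH2, HNRNPA1, HNRNPH3, HNRNPU, HNRNPK, HNRNPC and HNRNPA3 differed by 0.23 to 0.48 with intervals above 0. At the other end HNRNPUL1, a relative of the nuclear scaffold protein HNRNPU, stood at 259.0 CPM in control and 184.5 in Rg3, a difference of -0.49 (-0.57 to -0.41). HNRNPA0, HNRNPD and HNRNPAB differed by -0.29, -0.24 and -0.22. HNRNPA0 and HNRNPD both bind AU-rich elements in mRNA. HNRNPCL2 had the lowest value, -0.55, on 21 and 18 reads, and its interval held 0.

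After TAM, 2 of the 36 members were higher and 5 were lower than in control. Among all compared genes 16.6% were higher and 23.4% were lower, and the members' shares (5.56% and 13.9%) were under both. The median of the members was -0.15, beside -0.02 for all genes, and turned to 0.08 with the composition trend removed. Before that step 13 members were above 0 and 23 below, and the interval lay below 0 for 19 and above 0 for 6. The same splits over all genes are not given for TAM either. Genes with 42% to 45% G and C, the range of the members' median of 42.9%, had a median change of -0.27. SR genes had a median of -0.27, with 1 of 13 higher and 3 lower. hnRNP genes had a median of -0.02, with 1 of 23 higher and 2 lower. This comparison shares its control library with that of Rg3, so the 2 are given side by side only. Library totals gave 0 higher and 9 lower, and the assumed variation of 0.2 left no call.

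HNRNPAB rose by 0.72 (0.66 to 0.78), from 337.1 CPM in control to 554.8 in TAM, with 289.1 in Rg3 (3870, 5522 and 4163 reads). SRSF9 rose by 0.66 (0.57 to 0.75), from 155.6 CPM to 245.4, with 138.6 in Rg3 (1787, 2442 and 1996 reads). HNRNPL, which binds CA repeats, went from 314.3 to 448.3 CPM, a difference of 0.51 (0.45 to 0.58) that did not pass the fold. These 3 genes have a transcript GC content of 52.3% or more. HNRNPM (54.9%) and HNRNPUL1 (56.3%) lie in the same range and differed from control by 0.01 and 0.07. With the composition trend removed HNRNPAB, SRSF9 and HNRNPL were at 0.33, 0.30 and 0.20, and HNRNPM and HNRNPUL1 at -0.28 and -0.12. The part of composition in these values was not tested. HNRNPLL differed by 0.42 (0.17 to 0.67) and HNRNPC by 0.33 (0.29 to 0.38).

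The genes that fell in TAM were 3 SR genes and 2 hnRNP genes. HNRNPH2, the X-linked relative of HNRNPH1, fell by 1.17 on the log2 scale (interval of the change -1.40 to -0.93), from 47.99 CPM in control to 21.4 in TAM, with 66.8 in Rg3. That fall did not pass the fold with its readthrough gene added, as given further on. SRSF11, a protein of the splicing-factor speckles, fell by 0.96 (interval -1.16 to -0.76), from 58.1 CPM to 29.9, with 71.2 in Rg3. TRA2A fell by 0.69 (-0.90 to -0.48) and SRSF8 by 0.60 (-0.85 to -0.35), the latter from 32.8 to 21.7 CPM. For each of these 4 genes TAM was the lowest library and Rg3 the highest. HNRNPCL2 passed the limit at -1.02 on 21 and 9 reads, and its interval (-2.33 to 0.17) held 0.

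SRSF5, the SR protein whose mRNA is classically induced by growth signals, was just short of the limit at -0.57 (-0.71 to -0.44), from 105.6 to 71.0 CPM. SRSF6 differed by -0.48, HNRNPUL2 by -0.45, HNRNPA3 by -0.43 and HNRNPK by -0.33. SRSF10, which rose in Rg3, differed from control by -0.31 (-0.52 to -0.11) in TAM. SRSF3 differed by -0.05, with an interval (-0.13 to 0.04) that held 0, so its level in TAM was not separable from control at this depth. HNRNPM, HNRNPF, HNRNPA0, HNRNPD, HNRNPDL and HNRNPUL1 lay between -0.02 and 0.09, each with an interval that held 0.

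**Figure D2:**
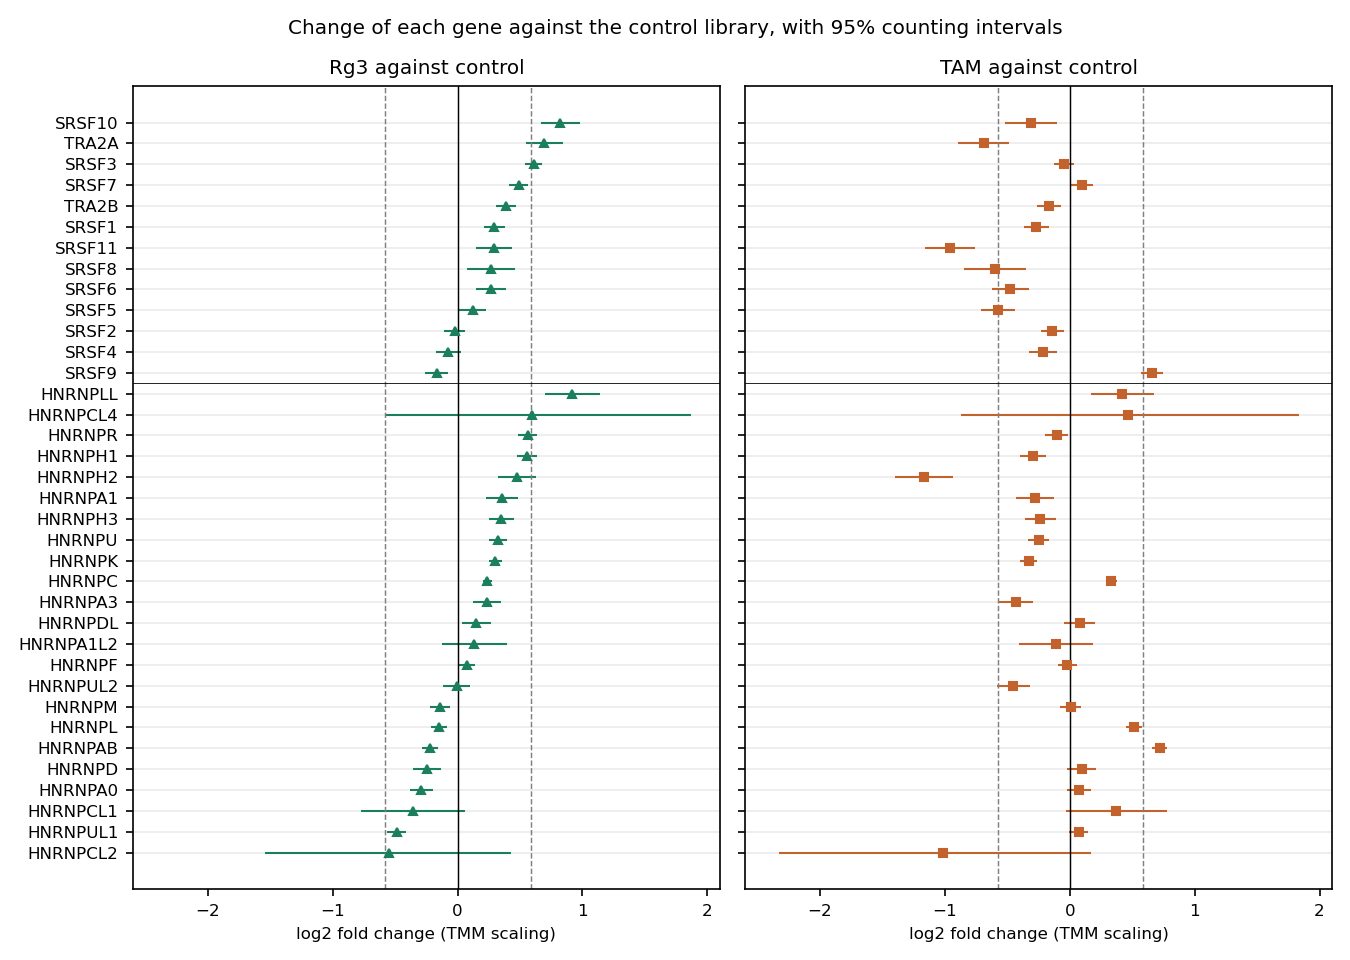
Log2 fold change of the 36 compared members against the control library after TMM scaling, Rg3 on the left and TAM on the right, with SR genes above the line and hnRNP genes below it. Points are single comparisons of 1 library with 1 library, bars are 95% exact counting intervals, and dashed lines mark folds of 1.5 and 0.67, before any correction for base composition. SRSF10, TRA2A, SRSF3, HNRNPLL and HNRNPCL4 lie past the right line in Rg3, and SRSF9 and HNRNPAB in TAM.

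Set against Rg3, TAM was lower at 14 of the 36 members (38.9%) and higher at 4, beside 34.5% and 30.1% of all compared genes. The median of the members was -0.48, and that of all genes -0.05, and the members' value turned to 0.25 with the composition trend removed. Library totals gave 1 higher and 22 lower. SR genes had a median of -0.66, with 7 of 13 lower and 1 higher, and hnRNP genes a median of -0.24, with 7 of 23 lower and 3 higher. Every SR gene but SRSF9 was below 0 with an interval that did not reach it. HNRNPH2 differed by -1.64 (-1.86 to -1.43), TRA2A by -1.38 (-1.57 to -1.20), SRSF11 by -1.25 (-1.44 to -1.06) and SRSF10 by -1.13 (-1.32 to -0.95). With the composition trend removed HNRNPH2 was at -0.93, TRA2A at -0.57, SRSF11 at 0.11 and SRSF10 at 0.26. HNRNPH2 summed with its readthrough gene, before that step, was at -0.88. The 4 higher genes were HNRNPAB at 0.94 (0.88 to 1.00), SRSF9 at 0.82 (0.74 to 0.91), HNRNPCL1 at 0.73 (0.32 to 1.14) and HNRNPL at 0.66 (0.60 to 0.72). In that order they were at 0.23, 0.29, 0.68 and -0.007 with the composition trend removed.

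The compounds differ in scaffold, a steroid-like saponin with sugars against a triphenylethylene, and they were used at different concentrations. Their values are therefore set side by side as those of 2 treatments, and the contrast of TAM with Rg3 does not compare them at a matched dose.

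Base composition moved with these values. Across all compared genes with a GC value (88.0% of them) the change in Rg3 was lower the higher the GC content of the transcript (Spearman's rho -0.77 over 13786 genes), and the change in TAM was higher (0.46 over 13787 genes). Over the 36 members the same description gave -0.60 and 0.24. Genes are not independent replicates, and all these points share the same pair of libraries. The members had a median GC content of 42.9% (range 35.3% to 56.3%), beside 49.0% for all genes, and 28 of the 36 lay under the latter value. The members are therefore mostly AT-rich transcripts, which as a class were higher in Rg3 and lower in TAM.

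With a smooth trend on GC content and transcript length taken off, the median of the members in Rg3 turned from 0.25 to -0.17, and 25 of the 36 fell below the trend. The shares of all genes below the trend, or past the fold with it removed, are not given here. None of the 5 rises kept its call: SRSF10 was at -0.11, SRSF3 at -0.17, TRA2A at 0.05, HNRNPLL at 0.10 and HNRNPCL4 at 0.54. HNRNPH1, at 51.6% GC, was the 1 member higher at 0.72, while HNRNPA0 (-0.91), HNRNPD (-0.85), HNRNPCL2 (-0.66) and HNRNPA3 (-0.64) were lower. HNRNPH1 thus stood above genes of the composition annotated for it, and HNRNPA0 and HNRNPD below theirs. Composition was read from 1 annotated transcript per gene, and other transcripts of these genes were not tried.

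In TAM the median turned from -0.15 to 0.08, with 4 members higher and 3 lower. Shares of all genes past the fold with the trend removed are not given here, so these counts of members cannot be set beside them. HNRNPH2 stayed past the limit at -1.03, for reads counted on that gene alone, and HNRNPCL2 was at -1.19 on its few reads. SRSF5 passed the limit at -0.60. HNRNPLL (0.99), HNRNPC (0.94), HNRNPA0 (0.90) and HNRNPR (0.70) stood above their trend, while HNRNPAB and SRSF9 came to 0.33 and 0.30 and no longer passed it. SRSF11 was at -0.44, TRA2A at -0.52 and SRSF8 at -0.26, so these 3 falls no longer passed. With GC content alone in the trend, 3 members were higher, HNRNPLL (1.03), HNRNPC (0.92) and SRSF9 (0.59), the last of them at the limit. HNRNPAB (0.54), HNRNPA0 (0.54), HNRNPR (0.47) and SRSF5 (-0.48) did not pass in that fit. Whether the trend on composition came from the cells, the RNA or the libraries was not tested.

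**Figure D3:**
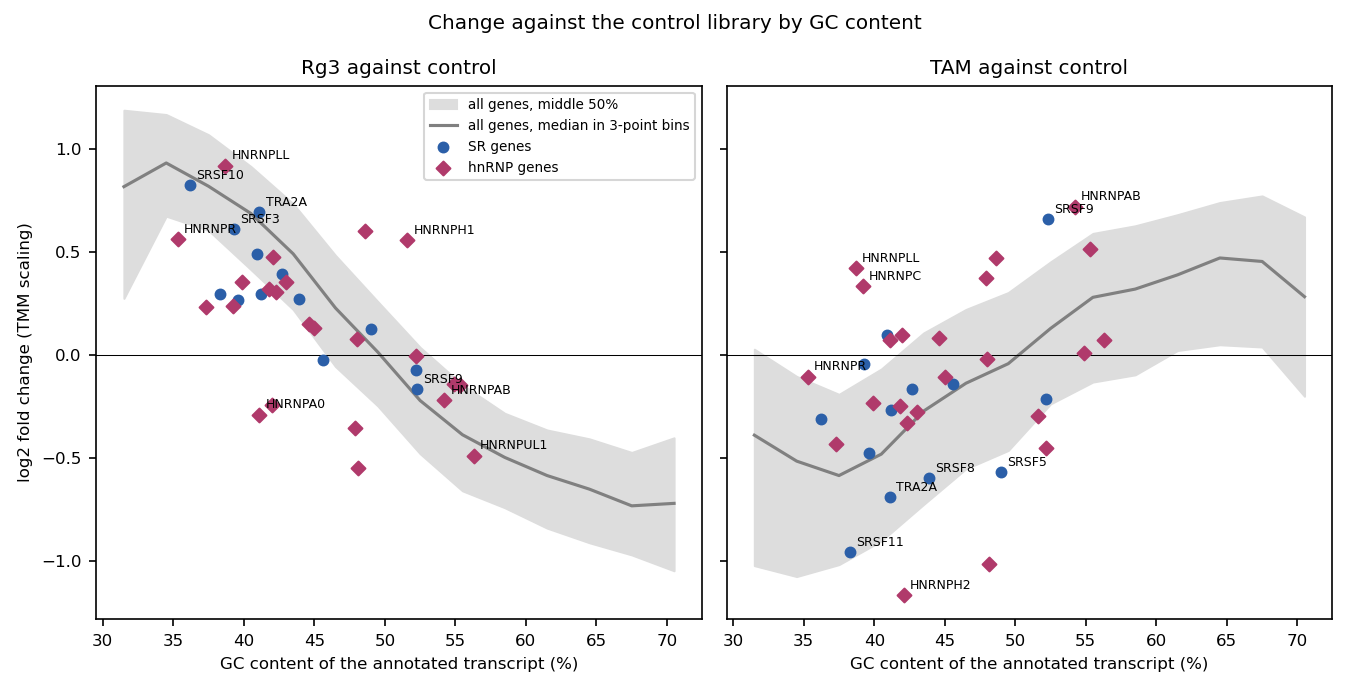
Log2 fold change against control by GC content of the annotated transcript, Rg3 on the left and TAM on the right. The grey line and band give the median and the middle 50% of all compared genes in bins of 3 percentage points, circles are SR genes and diamonds hnRNP genes. The line falls with GC content in Rg3 and rises in TAM, HNRNPH1 lies above the band in Rg3 with HNRNPA0 below it, and HNRNPH2 lies below the band in TAM.

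Several members share sequence with other genes, and how the counting treated such reads is not given in the sources used here. HNRNPA1, one of the core hnRNPs and a repressor of many exons, is the clearest case. The table listed 69 pseudogenes named after it, 59 with reads, and together they held 3549 reads in control, 5751 in Rg3 and 3020 in TAM beside 830, 1331 and 594 on HNRNPA1. That put 81.1%, 81.2% and 83.6% of the combined reads on pseudogenes. How close the copies are can be read from a stretch of 60 coding bases of HNRNPA1 (chr12:54282427-54282486, plus strand), set beside the same stretch of HNRNPA1L2 (chr13:52643016-52643075, plus strand) and HNRNPA1P7 (chr18:32412594-32412653, minus strand). Capitals mark bases that differ from HNRNPA1, with 1 in HNRNPA1L2 and 0 in HNRNPA1P7.
HNRNPA1: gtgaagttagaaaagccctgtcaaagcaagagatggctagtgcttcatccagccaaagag
HNRNPA1L2: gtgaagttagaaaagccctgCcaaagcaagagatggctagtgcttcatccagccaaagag
HNRNPA1P7: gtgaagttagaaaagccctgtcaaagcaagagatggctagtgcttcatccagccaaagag

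HNRNPA1P7 alone held 1401, 2346 and 1210 reads, more than HNRNPA1 in each library, and a read within this stretch cannot be assigned to either. With the pseudogenes added, HNRNPA1 differed from control by 0.37 in Rg3 (0.31 to 0.42) and by -0.07 in TAM (-0.14 to -0.01), beside 0.36 and -0.28 for the gene by itself. HNRNPA3 had 57.3% to 60.4% of its combined reads on pseudogenes, and its values with them were 0.27 and -0.32. For HNRNPC, HNRNPK and HNRNPL the share was 16.8% to 20.7%. Of HNRNPC's copies, HNRNPCP2 held 1911, 2765 and 1892 reads. Levels of HNRNPA1 and HNRNPA3 given above are therefore uncertain, and for HNRNPA1 the difference in TAM nearly vanished when the pseudogenes were added.

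**Figure D4:**
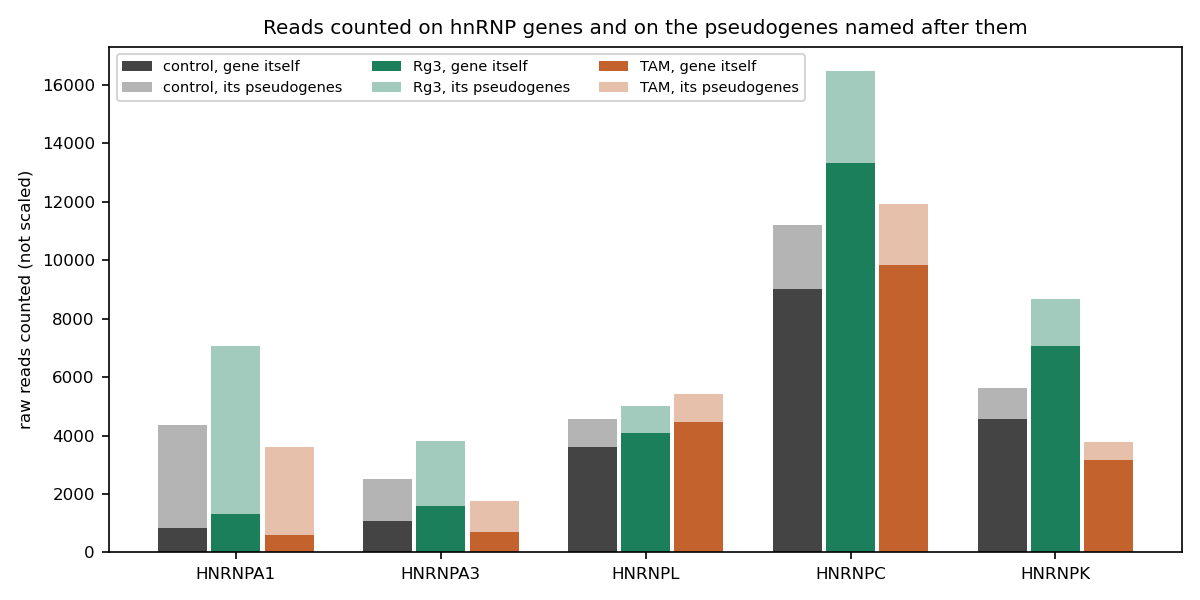
Raw reads on 5 hnRNP genes (dark) and on the pseudogenes named after them (light, stacked) in the control, Rg3 and TAM libraries, not scaled for depth. The light part makes up most of the HNRNPA1 and HNRNPA3 bars and a smaller part of the HNRNPL, HNRNPC and HNRNPK bars.

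Overlapping genes touch other members. HNRNPH2 shares exons with the readthrough gene RPL36A-HNRNPH2, which held 716, 1138 and 576 reads and differed from control by -0.11 in TAM (-0.27 to 0.05). The 2 summed gave -0.48 in TAM (-0.61 to -0.35), so with the readthrough gene included the fall no longer passed the fold. HNRNPUL2 shares 45.2% of its 50-base stretches with the readthrough gene HNRNPUL2-BSCL2, and the 2 summed differed from control by -0.14 in TAM, beside -0.45 for HNRNPUL2 itself. SRSF9 overlaps GATC on the opposite strand and shares 38.9% of its 50-base stretches with it. GATC had 235, 452 and 289 reads, far fewer than SRSF9, and differed from control by 0.51 in TAM. SRSF1 shares 59.0% of its stretches, mostly with AC015813.2, and HNRNPL 32.3%, mostly with AC008982.1. Of HNRNPCL4, 94.0% recurs in HNRNPCL3.

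The wider splicing machinery was read through 10 lists of genes, 154 of them compared. In Rg3 35 were higher (22.7%) and 15 lower (9.74%), and in TAM 9 were higher (5.84%) and 35 lower (22.7%). Among all genes the shares were 23.8% and 19.2% in Rg3 and 16.6% and 23.4% in TAM. Beside all genes, the lists thus held a smaller share of lower genes in Rg3 and of higher genes in TAM, a difference that was not tested.

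Among the 11 compared hnRNPs with other names, 3 were higher in Rg3 and 0 lower, with 0 higher and 2 lower in TAM. HNRNPA2B1, which also sorts microRNAs into exosomes, had 7459 reads in control, 14940 in Rg3 and 5159 in TAM. It rose by 0.68 in Rg3 (0.64 to 0.72) and differed by -0.33 in TAM, and its values with the trend removed were -0.16 and 0.17. PTBP3 rose by 0.69 in Rg3 and fell by 1.05 in TAM, and SYNCRIP rose by 0.62 in Rg3. With the trend removed 0 of the 11 passed the fold in Rg3, and 2 were higher and 1 lower in TAM. PTBP2, the neuronal paralog of PTBP1, fell by 1.45 in TAM on 44 and 14 reads. PTBP1, PCBP1, PCBP2, RALY, RBMX and KHSRP did not pass the fold in either library.

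The kinases and phosphatases that act on SR proteins had the highest median of the lists in Rg3, 0.69, with 6 of 11 higher and 0 lower. Among all genes 23.8% were higher in Rg3. CLK1, the nuclear kinase that frees SR proteins from speckles, had 89 reads in control, 382 in Rg3 and 77 in TAM. It rose by 1.78 in Rg3 (1.44 to 2.13), kept 1.49 with the trend removed, and differed by 0.00 in TAM (-0.46 to 0.45). Among the kinases it had the largest rise in Rg3. CLK4 rose by 0.97 (0.44 to 1.52) on 42 and 103 reads, and SRPK1, PRPF4B, PPP1CB and PPP1CC rose by 0.69 to 0.88. Relative to the trend the list's median in Rg3 was 0.09 and CLK1 was the 1 gene that passed, with CLK4, SRPK1 and PPP1CC at 0.14, 0.14 and 0.17 and PRPF4B and PPP1CB at -0.03 and -0.21. In TAM the median of the list was -0.52, with 0 higher and 4 lower. PRPF4B fell by 1.15, SRPK2 by 1.07, SRPK1 by 0.61 and DYRK1A by 0.61 on the log2 scale. After the trend was removed that median was -0.06, with 2 higher and 1 lower. SRPK2 was at -0.68, PRPF4B at -0.56 and SRPK1 at -0.14, and DYRK1A turned to 0.23.

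Proteins that carry SR proteins into the nucleus or methylate hnRNPs were mixed. TNPO1, the importin of HNRNPA1, had 728 reads in control and 2146 in Rg3 and rose by 1.23 (1.11 to 1.36), while its paralog TNPO2 fell by 0.75. TNPO3, the importin of SR proteins, fell by 0.73 in TAM, on 678 and 354 reads. PRMT1, the main arginine methyltransferase of hnRNPs, had 5449, 4183 and 7878 reads, so it fell by 0.71 in Rg3 and rose by 0.74 in TAM. Once the trend was taken off none of these calls held. TNPO1 was at 0.40 and TNPO2 at -0.33 in Rg3, TNPO3 at -0.46 in TAM, and PRMT1 at -0.27 in Rg3 and 0.29 in TAM.

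SR-related proteins of the speckles fell most widely in TAM, with 0 higher and 12 of 22 lower and a median of -0.62. Among all genes 23.4% were lower in TAM. SREK1 fell by 1.44 (257 to 82 reads) and SCAF11 by 1.44 (329 to 105 reads). In Rg3 7 were higher and 1 lower. BCLAF1 rose by 0.91 (432 to 1017 reads) and U2SURP by 0.88, while SCAF1 fell by 0.87. With the trend removed 0 of the 22 passed the fold in Rg3, and 3 were lower in TAM, where the median was -0.27.

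Other regulators counted 27 compared genes, with 4 higher and 3 lower in Rg3 and 0 higher and 6 lower in TAM. MATR3, a nuclear matrix protein, rose by 0.96 in Rg3 (1106 to 2694 reads), and TIAL1 by 0.71, while CIRBP, a cold-inducible RNA-binding protein, fell by 0.69 and NOVA2, known from neurons, by 0.61 (72 to 59 reads). Relative to the trend 0 were higher and 2 lower in Rg3, and MATR3, TIAL1, CIRBP and NOVA2 were at 0.20, -0.07, -0.34 and -0.16. In TAM TIA1, which aids recognition of weak 5′ splice sites, fell by 1.51 (270 to 82 reads) and MBNL2 by 1.46 (365 to 115 reads), and they were at -0.86 and -0.80 with the trend removed. NOVA2 fell by 1.16 (72 to 28 reads) and was at -0.97.

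Of 19 components of U1, U2 and U2AF, 2 were higher and 6 lower in Rg3, with a median of -0.45, and 1 was higher and 2 lower in TAM. U2AF1, which reads the AG of the 3′ splice site, had 755 reads in control, 345 in Rg3 and 331 in TAM, so it fell by 1.46 in Rg3 (-1.65 to -1.27) and by 0.98 in TAM (-1.17 to -0.80). U2AF1 and NOVA2 were the 2 genes of the lists below control by the fold in both treated libraries. After the trend was removed U2AF1 was at -1.72 in Rg3 and -1.08 in TAM. SF3A2 fell by 1.23 in Rg3, and SF3B1 and SF3B6 rose by 0.76 and 0.75. In TAM SF3B1 fell by 0.73 and PHF5A rose by 0.80. Once the trend was taken off SF3A2, SF3B1 and SF3B6 were at -0.51, 0.11 and 0.35 in Rg3, and SF3B1 and PHF5A at 0.01 and 0.64 in TAM. A near-identical copy of U2AF1 is present in GRCh38, and how reads of such copies were counted is not given, so its level is uncertain.

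Of the 8 compared Sm core proteins 2 were higher in each library and 0 lower, SNRPG (0.69) and SNRPE (0.59) in Rg3 and SNRPF (0.77) and SNRPB (0.66) in TAM. With the trend removed SNRPG and SNRPE were at 0.10 and 0.00 in Rg3, where SNRPF was lower at -0.80, and in TAM SNRPF was at 0.69 and SNRPB at 0.16. Of 15 tri-snRNP proteins, SART1 and PRPF6 fell by 0.77 and 0.70 in Rg3. In TAM the catalytic scaffold PRPF8 fell by 0.97 (12070 to 5337 reads) and the helicase SNRNP200 by 0.90 (10432 to 4837 reads), while CD2BP2 and SNRNP40 rose by 0.83 and 0.69. Relative to the trend PRPF8 and SNRNP200 were at -0.67 and -0.61 and CD2BP2 and SNRNP40 at 0.60 and 0.58, the last no longer past the fold, while SART1 and PRPF6 were at -0.18 and -0.24 in Rg3.

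Among 20 PRP19 complex and catalytic step factors, 8 were higher and 1 lower in Rg3, and 0 higher and 3 lower in TAM. CDC5L rose by 1.11 (457 to 1239 reads) and PLRG1 by 0.97 in Rg3, where XAB2 fell by 0.76, and AQR and SLU7 fell by 1.12 and 0.95 in TAM. After the trend was removed 0 of the 20 passed the fold in Rg3, and AQR and SLU7 were at -0.27 and -0.54 in TAM.

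Nonsense-mediated decay and exon junction factors, the pathway that removes the poison-exon forms of SR mRNAs, counted 15 compared genes, with 2 higher and 0 lower in Rg3 and 3 higher and 3 lower in TAM. UPF3B and UPF2 rose by 0.78 and 0.75 in Rg3. SMG1, the kinase that marks UPF1, had 1502 reads in control, 2592 in Rg3 and 323 in TAM, and fell by 2.01 in TAM (-2.19 to -1.84), the deepest fall named here. UPF2 fell by 1.55 in TAM (199 to 59 reads), while RBM8A and SMG9 rose by 0.82 and 0.70. Once the trend was taken off UPF3B and UPF2 were at 0.17 and 0.05 in Rg3, where the list had 0 higher and 2 lower, and in TAM SMG1 was at -1.17, UPF2 at -0.86, RBM8A at 1.31 and SMG9 at 0.75. The table also lists pseudogenes of SMG1 with reads, so its level is uncertain. Forms with and without a poison exon are not told apart by counts per gene, and splicing itself was not measured.

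**Figure D5:**
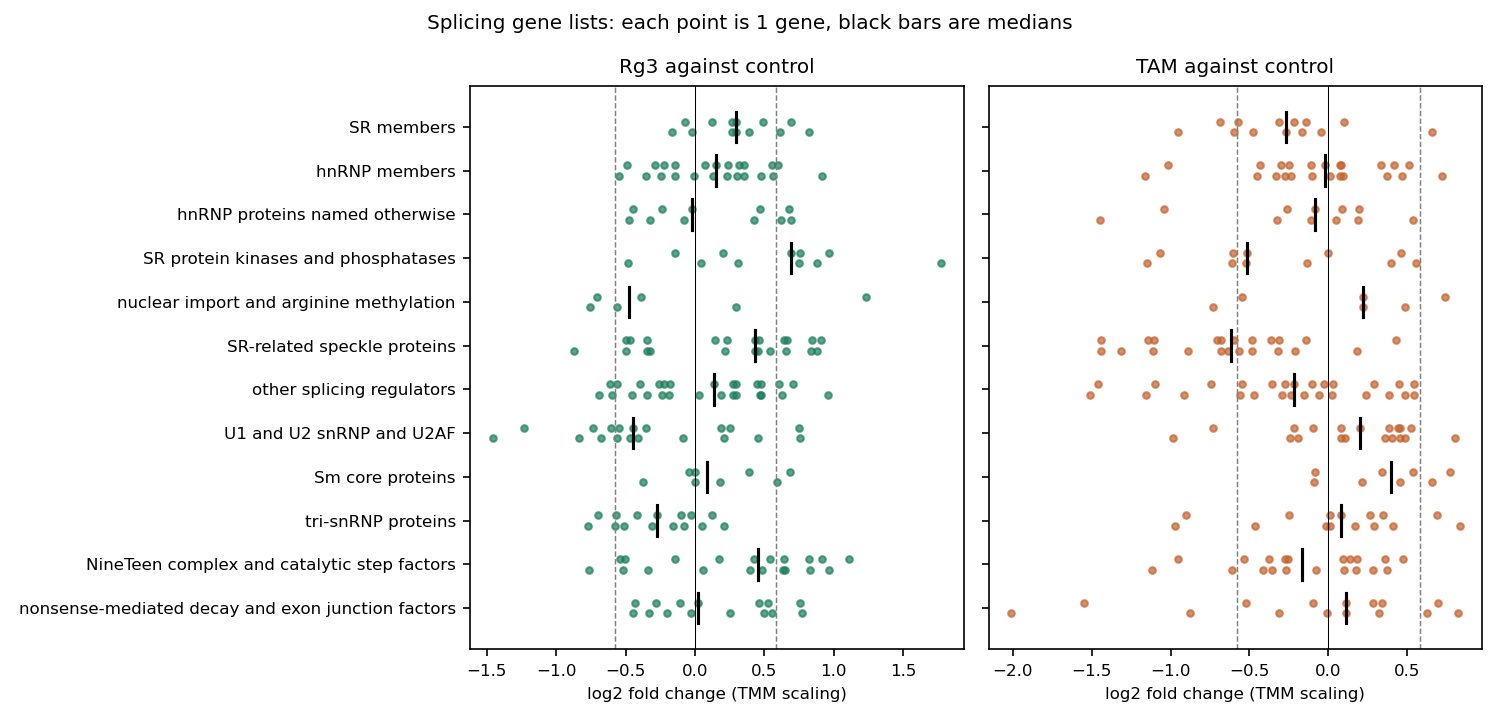
Log2 fold change against control of every compared gene in the 2 member families and the 10 lists, Rg3 on the left and TAM on the right. Each point is 1 gene, black bars are medians and dashed lines mark folds of 1.5 and 0.67. The kinase and phosphatase list has the highest median in Rg3 (0.69), with CLK1 at 1.78 as its rightmost point, and the speckle list the lowest in TAM (-0.62).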

How the data were processed

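RNA was extracted with TRIzol, purified on RNeasy columns and sequenced on an Ion Proton instrument, 1 library per condition. The authors aligned reads with TopHat and deposited raw counts per gene symbol. The build is GRCh38 per the submitters' processing notes. The counting tool, annotation, strand setting and handling of reads that match several genes are not given in the sources used here. All 3 columns belonged to a mapped library.

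The deposited counts were scaled with TMM in edgeR 4.0.16 (R 4.3.3), with factors of 1.02, 1.12 and 0.879 for control, Rg3 and TAM. Counts under 3 were set to 3, with no fold for a gene at 3 or fewer reads in both libraries. Limma, which the study used, needs replicates, so the fold alone (over 1.5 or under 0.67) made a call. Intervals of single genes were computed in R, and those of read shares and summed counts with SciPy 1.17.1 in Python 3.11.15. GC content, length and 50-base stretches came from GENCODE 29, matched by symbol for each of the 38 members. The longest protein-coding transcript stood for each gene, or the longest transcript where none was coding. The trend was a loess fit with a span of 0.3. The scaling and fold steps were tried on simulated counts with known changes and counting error alone. That trial did not cover the spread between cultures or the trend on composition. PCR reads are not independent molecules.

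Of each list, the 2 largest and 2 smallest changes past the fold with a mean of at least 50 reads were named for each comparison with control, and any member of a list of at most 10 genes. Genes of longer lists named beyond that were chosen after their values were seen, among them HNRNPA2B1, the hnRNPs with other names and the remaining kinases and phosphatases. The result of 1 listed gene is not reported here. The members and lists were chosen with earlier results of these data known. Alternatives were library totals, size factors from DESeq2 1.42.0, other count limits, the GC trends, an adjusted exact binomial p, edgeR's exact test at an assumed variation, and members with at least 20% shared stretches left out.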

Additional observations from a re-analysis of the deposited data

How the results depend on the processing

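No paired analysis was possible because a single library stands for every condition, and no library could be left out. Division by library totals gave 9 members higher in Rg3, 0 higher and 9 lower in TAM, and 1 higher and 22 lower in TAM against Rg3, with medians of 0.39, -0.36 and -0.83. Taking off the trend on GC content and length gave 1 higher and 4 lower in Rg3, 4 higher and 3 lower in TAM, and 11 higher and 3 lower in TAM against Rg3, with medians of -0.17, 0.077 and 0.25. A trend on GC content alone, an alternative added after seeing the data, gave 1 higher and 4 lower in Rg3, 3 higher and 2 lower in TAM, and 10 higher and 3 lower in TAM against Rg3, with medians of -0.16, 0.18 and 0.37. Under the 2 trends in that order SRSF10 turned to -0.11 and -0.081 and SRSF3 to -0.17 and -0.14 in Rg3. In TAM against Rg3 HNRNPA1 turned to 0.28 and 0.23, HNRNPA3 to 0.97 and 0.82, HNRNPH3 to 0.34 and 0.68, HNRNPK to 0.20 and 0.33, HNRNPR to 1.08 and 0.85, SRSF10 to 0.26 and 0.38, SRSF11 to 0.11 and 0.18, SRSF3 to 0.69 and 0.68 and SRSF6 to 0.59 and 0.56, and HNRNPL to -0.007 under the first alone. Leaving out members with shared stretches left 1 higher in TAM and 1 higher in TAM against Rg3. Shares of all genes past the fold under library totals or either trend are not given here. With the biological variation set to 0.2, the exact test of edgeR left 0 higher in Rg3, 0 higher and 0 lower in TAM, and 0 higher and 4 lower (HNRNPH2, TRA2A, SRSF11 and SRSF10) in TAM against Rg3, and a setting of 0.4 left 0 in each. An adjusted exact binomial p, which covers counting error only, dropped HNRNPCL4 in Rg3 and HNRNPCL2 in TAM. Size factors from DESeq2 took SRSF8 in TAM to -0.57, just short of the limit. Adding pseudogene counts, also chosen after seeing the data, took HNRNPA1 in TAM against Rg3 from -0.63 to -0.44. With 1 library a condition, the spread between cultures is unknown, and depth limits SRSF12, HNRNPCL2, HNRNPCL3 and HNRNPCL4.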
